A study of Mus musculus with 6 samples.

Results

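Proteasome genes were taken as the rows of the authors' deposited table whose gene symbol starts with Psm, a letter from a to g and a digit. The rule found 49 of 22609 genes, and all 49 had a mean above 0 in both groups and were tested by the authors. Of these, 48 encode subunits, activators, an inhibitor or assembly factors of the proteasome. Psmc3ip matched the rule by its symbol, but encodes a cofactor of meiotic recombination and was kept apart. By role there were 14 genes of the constitutive core, 9 of the base, 8 of the lid, 7 assembly factors, 5 immunoproteasome genes, 3 other regulators and 2 core subunits known from single tissues.

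RNA was sequenced from early T cell progenitors, the most immature thymocytes, sorted from fetal thymus of C57BL/6 mice as lineage-negative CD44+ c-Kit+ cells without CD4, CD8 or CD25. The dKO group had 3 libraries of genotype E2Afl/flHEBfl/flIL7RCre, in which the floxed genes of the E proteins E2A (Tcf3) and HEB (Tcf12) are deleted by a Cre recombinase named for the Il7r locus, so that deletion is limited to cells with a history of that Cre. These cells were also sorted as YFP+. The control group had 3 libraries of wild-type mice of the same strain, sorted without YFP, so the gate differed together with the genotype. The age of the embryos, or whether the libraries of 1 group are from different animals, is not stated in the labels, and the p-values may therefore measure technical spread. The series compares dKO with control to study how E and Id proteins steer progenitors between adaptive and innate lymphoid fates.

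The proteasome degrades proteins tagged with ubiquitin. Its core is a barrel of stacked alpha and beta rings with the proteolytic sites inside. A regulatory particle, made of a base with a ring of ATPases and a lid with a deubiquitylase, binds the tagged protein, removes the tag and threads the chain into the core. In lymphoid and antigen-presenting cells and under interferon, alternative catalytic subunits replace the constitutive ones to form the immunoproteasome, and an alternative cap, built of the products of Psme1 and Psme2, binds the core. Both are known for shaping the peptides that MHC class I molecules present. Dedicated chaperones assemble the core rings and the base.

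Group means in the authors' deposited table are normalised counts, and the genes with proteasome symbols took up 0.812% of the dKO total of 23.4 M and 0.835% of the control total of 22.1 M. Depth was about 24.3 to 27.0 M reads per dKO library and 18.2 to 22.6 M per control library. In that authors' deposited table Tcf3 had means of 364 in dKO and 8931 in control, 24.6-fold lower in dKO, and Tcf12 had means of 562 in dKO and 3845 in control, 6.84-fold lower. Of 7 progenitor markers 3 rose (Kit, Il7r and Ptprc), 3 fell (Notch1, Flt3 and Tcf7) and Cd44 did not pass, at the authors' adjusted p under 0.05. By the same threshold 15.1% of all tested genes rose and 13.8% fell. With a mean over both groups of at least 1000 the shares were 25.1% and 18.8%. The authors' deposited table gave Kit 19067 in dKO and 14094 in control, and Notch1 1829 in dKO and 10176 in control. The CD25 gene Il2ra, although the sort excluded CD25, had means of 8536 in dKO and 8417 in control, again in the authors' deposited table. In bulk RNA, fewer cells of a type and less RNA per cell cannot be told apart.

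Most proteasome genes differed little between the genotypes. At the authors' adjusted p under 0.05, 6 of 49 members were higher in dKO, 5 were lower and 38 did not pass. That is 22.4% of the members, against 29.0% of the 16241 tested genes in the same comparison (15.1% higher and 13.8% lower). With a change of at least 1.5-fold also required, 4 members were called, against 19.9% of all tested genes. Of the 42 members with a mean over both groups of at least 1000, 6 were higher and 2 lower, which is 19.0%, against 43.9% of the 5231 tested genes of that abundance (25.1% higher and 18.8% lower). The median log2 change of all members was -0.02 and that of all tested genes -0.01. Members also lay close together: 36 of the 42 abundant members (85.7%) were within 1.25-fold of control, against 56.5% of tested genes above the same limit. The interquartile range of the log2 change was 0.22 among those members and 0.55 among those genes. These are descriptions of the lists, with no test. The members that rose were 3 beta subunits of the core (Psmb1, Psmb4 and Psmb7), the base ATPase gene Psmc2 and the activator genes Psme1 and Psme2, whereas 3 assembly factors (Psmg1, Psmg3 and Psmd5), Psma8 and Psmc3ip fell. When both groups were scaled to equal totals, which lowers every log2 change by 0.08, and p-values were recomputed approximately (an alternative chosen after seeing the data), the members called higher were Psmc2 and Psme2, and the lower ones numbered 9. Psmb1, Psmb4, Psmb7 and Psme1 were then not called, and Psmb4 was also not called with the median change of genes scaled to 0.

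**Figure D1:**
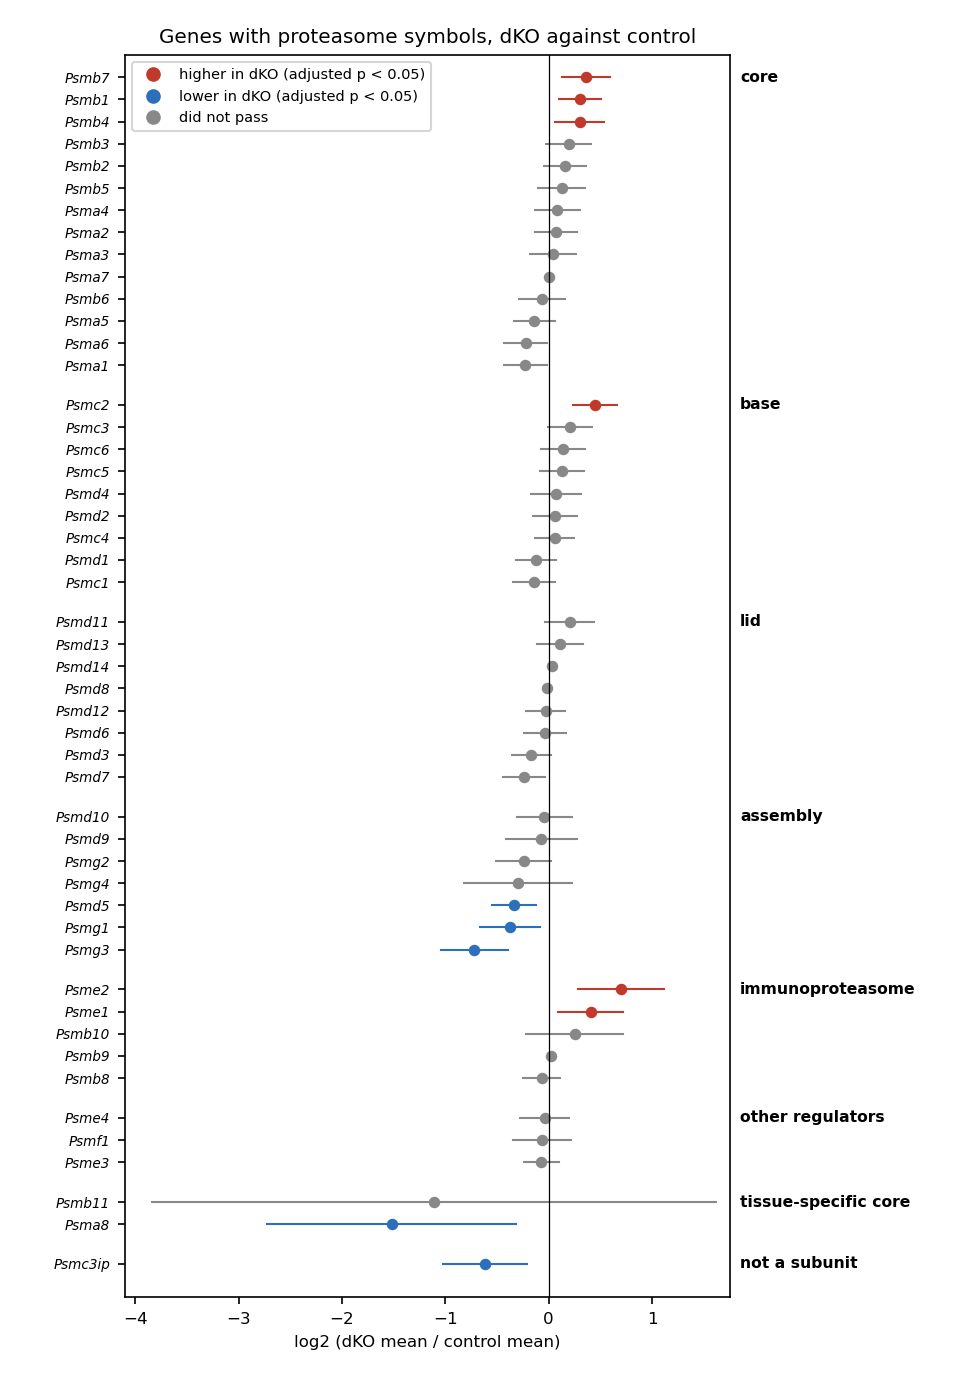
Log2 change, dKO over control, of each gene with a proteasome symbol, ordered by role and by size of change. Points are changes of the group means, lines the 95% interval that the authors' p-value implies (not adjusted for the number of genes, and absent where p is close to 1), and colours show the authors' call at an adjusted p under 0.05. Most core, base and lid genes sit near 0, while all 7 assembly factors lie to the left of it and Psme2 and Psme1 to the right.

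**Figure D2:**
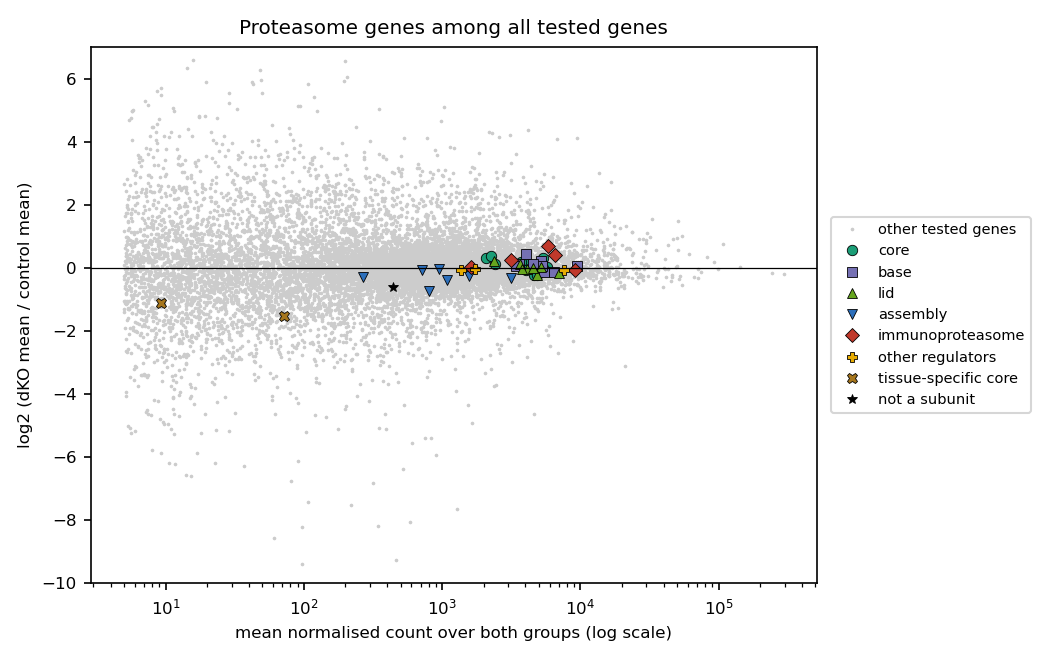
Log2 change, dKO over control, against the mean normalised count over both groups (log scale) for tested genes with a mean of at least 5 and above 0 in both groups (grey), with proteasome genes marked by role. The core, base and lid genes form a narrow band between -0.24 and 0.45 on the log2 scale, among genes of the same abundance that spread more widely.

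The outer rings of the core are made of alpha subunits, which gate entry to the barrel. None of the 7 ubiquitous alpha genes passed, against 43.9% of tested genes with a mean of at least 1000 that were called in either direction. Their median log2 change was 0.01. The widest differences were in Psma1 and Psma6. In the authors' deposited table Psma1 had means of 4280 in dKO and 5008 in control (adjusted p = 0.0983), and Psma6 had 4519 in dKO and 5274 in control (adjusted p = 0.105). Psma7 was at 5412 in dKO and 5392 in control in the authors' deposited table. The 7 alpha genes together had a summed mean of 33527 in dKO and 34848 in control.

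The inner rings hold the beta subunits, 3 of which carry the proteolytic sites. Of the 7 constitutive beta genes, 3 rose, 4 did not pass, and 6 had a log2 change above 0. Among tested genes with a mean of at least 1000, 25.1% rose and 2753 of 5231 had a log2 change above 0. The median log2 change of the beta genes was 0.19, and their summed mean was 25342 in dKO and 22265 in control. Psmb7, the trypsin-like catalytic subunit, rose 1.28-fold, with means of 2557 in dKO and 1991 in control in the authors' deposited table (adjusted p = 0.0113). Psmb1 and Psmb4, which have no active site of their own, rose 1.23-fold each in the authors' deposited table. By the authors' deposited table Psmb1 had means of 5888 in dKO and 4776 in control (adjusted p = 0.0143 by DESeq), and Psmb4 of 2310 in dKO and 1876 in control (adjusted p = 0.0451 by DESeq). The other 2 catalytic subunits did not pass. Psmb5, the chymotrypsin-like subunit, had means of 2513 in dKO and 2300 in control in the authors' deposited table, and the 95% interval of its fold that the p-value implies was 0.934 to 1.28. Psmb6, the caspase-like subunit, was at 3921 in dKO and 4106 in control in that authors' deposited table, with an interval of 0.818 to 1.12. Scaled to equal totals, none of the beta genes was called by the recomputed p-values. Among markers of cycling cells, 3 of 5 rose, against the same 25.1% of tested genes. The summed mean of these markers was 74106 in dKO and 52261 in control. The part of cycling cells in the differences of the beta genes was not tested.

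Levels can be compared between genes only per length. Per kilobase of the longest coding transcript, the ubiquitous core genes ranged from 1481 (Psma2) to 5219 (Psmb3) in dKO and from 1408 (Psma2) to 5145 (Psmb6) in control, in mean normalised count. Psmb4, Psmb7 and Psma3 lay near the lower end in both groups, with levels per kilobase of 1953, 2205 and 2035 in dKO and of 1586, 1716 and 1981 in control. These levels depend on the transcript chosen: with the shortest coding transcript, Psma3 was at 6743 per kilobase in dKO and 6564 in control. No values per library were used for these genes, so whether neighbours in the order differ was not tested.

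The base unfolds substrates with its ATPases and holds scaffold subunits and ubiquitin receptors. Of its 9 genes 1 rose and 8 did not pass, with a median log2 change of 0.07. Among tested genes with a mean of at least 1000, 25.1% rose and 18.8% fell. Psmc2, an ATPase subunit, rose 1.36-fold, with means of 4682 in dKO and 3438 in control in the authors' deposited table (adjusted p = 0.000274), and it stayed among the calls with equal totals. The other 5 ATPase genes had log2 changes between -0.14 (Psmc1) and 0.21 (Psmc3). In the authors' deposited table Psmc3 was at 5569 in dKO and 4828 in control (adjusted p = 0.144). The scaffold genes Psmd1 and Psmd2 and the ubiquitin receptor gene Psmd4 did not pass. Psmd2 had means of 9601 in dKO and 9216 in control in the authors' deposited table, the highest of all members in dKO before length is considered. Psmc2 is the called member of the regulatory particle, so the first of its 2 promoter windows in RefSeq, 250 bases before to 50 bases after the start site (GRCm38.p6, chr5:21785025-21785324, + strand), is shown 5′ to 3′ with the CCAAT box in capitals.
Psmc2: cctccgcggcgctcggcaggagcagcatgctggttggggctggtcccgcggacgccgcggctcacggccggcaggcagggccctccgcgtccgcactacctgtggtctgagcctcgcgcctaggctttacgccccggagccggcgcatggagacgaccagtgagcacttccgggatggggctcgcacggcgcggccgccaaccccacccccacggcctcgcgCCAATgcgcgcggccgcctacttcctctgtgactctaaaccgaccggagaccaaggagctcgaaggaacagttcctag

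The lid carries the deubiquitylase that removes the ubiquitin chain. None of its 8 genes passed, while 43.9% of tested genes with a mean of at least 1000 were called in either direction. The median log2 change of the lid genes was -0.02. Psmd14, the deubiquitylase, had means of 5268 in dKO and 5154 in control in the authors' deposited table. The lid genes with the widest differences were Psmd7 and Psmd11. By DESeq in the authors' deposited table, Psmd7, which encodes the partner of that deubiquitylase, had 4483 in dKO and 5287 in control (adjusted p = 0.0759), and Psmd11 had 2529 in dKO and 2198 in control (adjusted p = 0.226). With equal totals Psmd3 and Psmd7, along with Psma1 and Psma6, were among the genes called lower by the recomputed p-values.

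Of the 7 assembly factors 3 fell and 4 did not pass, and all 7 had a log2 change below 0. Among all tested genes 13.8% fell, and 18.8% did so above the abundance limit of 1000. A log2 change below 0 was found in 8211 of the 16241 tested genes. The median log2 change of the assembly factors was -0.30, and their summed mean was 7649 in dKO and 9429 in control. Psmg3, a chaperone that builds the alpha ring together with Psmg4, fell 1.64-fold, with means of 613 in dKO and 1008 in control in the authors' deposited table (adjusted p = 0.000124). Psmg1, which acts in the same step together with Psmg2, fell 1.30-fold, with 951 in dKO and 1233 in control in the authors' deposited table (adjusted p = 0.0446). Psmd5, a chaperone of the base ATPases, fell 1.26-fold in the authors' deposited table, with 2785 in dKO and 3508 in control (adjusted p = 0.0109). All 3 were also called lower with equal totals, but that scaling lowers every log2 change by 0.08 and so could not weaken a fall. The partners Psmg2 and Psmg4 did not pass: the authors' deposited table had Psmg2 at 1424 in dKO and 1686 in control and Psmg4 at 240.2 in dKO and 295 in control. Reads per library could be solved for Psmg4 in dKO, where the normalised counts were 206, 269 and 246 in the libraries of size factor 1.04, 1.08 and 1.16, the numbers by which normalisation divided their reads. The SD of those values was 31.7 (n = 3 libraries), and reads of the control libraries had no unique solution, so the spread in control is not known here. The other base chaperones did not pass: the authors' deposited table had Psmd9 at 698 in dKO and 733 in control, and Psmd10 at 937 in dKO and 965 in control. Outside the symbol rule, the core maturation factor gene Pomp did not pass, with means of 3661 in dKO and 3634 in control in the authors' deposited table. Psmg3 had the smallest adjusted p of the members that fell, and its promoter window (RefSeq, GRCm38.p6, chr5:139826845-139827144, - strand) is shown with an E-box of the form CAGNTG in capitals.
Psmg3: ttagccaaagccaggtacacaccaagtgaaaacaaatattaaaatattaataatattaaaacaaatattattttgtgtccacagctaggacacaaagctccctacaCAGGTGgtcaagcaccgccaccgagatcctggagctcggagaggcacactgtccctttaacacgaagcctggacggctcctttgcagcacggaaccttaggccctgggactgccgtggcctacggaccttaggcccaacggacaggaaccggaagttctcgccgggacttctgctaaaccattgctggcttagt

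Of the 5 immunoproteasome genes, the activator genes Psme1 and Psme2 rose and the 3 catalytic genes did not pass. The share that rose was 15.1% among all tested genes and 25.1% among those with a mean of at least 1000. Whether the changes of activator and catalytic genes differ was not tested. Psme2 rose 1.62-fold, the largest fold among the members that rose, with means of 7268 in dKO and 4480 in control in the authors' deposited table (adjusted p = 0.00478). Psme1, whose product forms the same cap, rose 1.33-fold, with 7504 in dKO and 5655 in control in the authors' deposited table (adjusted p = 0.0386). With equal totals and recomputed p-values Psme2 was still called higher and Psme1 was not. Per kilobase they were at 7555 (Psme2) and 6748 (Psme1) in dKO and 4657 (Psme2) and 5085 (Psme1) in control with the longest coding transcript. With the shortest, they were at 9142 (Psme2) and 11020 (Psme1) in dKO and 5635 (Psme2) and 8304 (Psme1) in control, so which gene is higher in dKO depends on the transcript chosen. RefSeq also lists Psme2b, a gene with the synonym Psme2-like that has no row in the table, and how reads shared between them were counted is not given in the sources used here. Psme3, the nuclear relative of both genes that is not part of the immunoproteasome, did not pass, with means of 7413 in dKO and 7779 in control in the authors' deposited table and an implied interval of 0.845 to 1.08 for its fold.

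The immunoproteasome catalytic genes differed in level in control. Per kilobase of the longest coding transcript, control levels were 5748 for Psmb8, 2199 for Psmb10 and 1194 for Psmb9. Psmb9 lay below the lowest ubiquitous core gene (Psma2, 1408 in control). Psmb8, the counterpart of Psmb5, had means of 8931 in dKO and 9358 in control in the authors' deposited table (adjusted p = 0.704), and the implied 95% interval of its fold, 0.844 to 1.08, holds both a small fall and a small rise. Psmb10, the counterpart of Psmb7, was at 3430 in dKO and 2882 in control in the authors' deposited table (adjusted p = 0.526), with a wider interval of 0.861 to 1.65, which holds the folds of Psme1 and Psme2. Psmb9, the counterpart of Psmb6, was at 1643 in dKO and 1614 in control in the authors' deposited table (adjusted p = 1). Its p-value before adjustment was too close to 1 to derive an interval, so the precision of this small change is not known here. Per kilobase of the longest coding transcript, the ratio of Psmb8 to Psmb5 was 1.96 in dKO and 2.25 in control. That of Psmb10 to Psmb7 was 1.19 in dKO and 1.28 in control, and that of Psmb9 to Psmb6 was 0.247 in dKO and 0.232 in control. On the log2 scale these ratios changed by -0.20, -0.11 and 0.09 in dKO against control, with no test possible from group means. The level of the first ratio depends on the transcript chosen. Psmb5 was at 2795 per kilobase in dKO and 2558 in control with the longest, and at 4040 and 3698 with the shortest. The standard error of the log2 change that the p-value implies differed among the immunoproteasome genes. It was 0.211 for Psme2, 0.238 for Psmb10 and 0.160 for Psme1, against 0.0905 for Psmb8, and 0.129 in the median of 4486 tested genes with means from 1000 to 10000. Of those genes, 93.1% had a smaller implied standard error than Psme2 and 94.9% a smaller one than Psmb10.

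Other genes of MHC class I antigen processing rose alongside the activator genes. Of 13 such genes, chosen for their role in the pathway but with earlier results of these data known, 9 rose, 4 missed the threshold and none fell. Among all tested genes 15.1% rose, and 25.1% did so above the abundance limit of 1000. The median log2 change of the 13 genes was 0.90. Their median implied standard error was 0.234, against 0.128 for tested genes with a mean of at least 1000. Nlrc5, the transactivator of MHC class I genes, rose 3.88-fold in the authors' deposited table, with 1459 in dKO and 376 in control (adjusted p = 0.000828). Pdia3, a chaperone of peptide loading, rose 1.99-fold (adjusted p = 5.82e-25) and Erap1, a peptide-trimming enzyme, 1.32-fold (adjusted p = 0.0011) in the authors' deposited table. The peptide transporter genes Tap1 and Tap2 lie beside immunoproteasome genes. In RefSeq the order along chromosome 17 is Psmb9, Tap1, Psmb8 and Tap2, with Psmb9 and Tap1 head to head. Tap1 rose 2.13-fold, with means of 7010 in dKO and 3294 in control in the authors' deposited table (adjusted p = 0.0162), while Psmb9 beside it did not pass. The difference between these neighbours was not tested. Tap2 did not pass, with 5917 in dKO and 6667 in control in the same authors' deposited table. Canx, Calr and Irf1 were the other members of the list that did not pass. Of 5 dendritic cell markers Xcr1 rose, Itgax fell and Siglech was at 0, and the list had a summed mean of 493 in dKO and 350 in control, and of 4 macrophage markers in the table Emr1 rose and Lyz2 and Csf1r fell, with a summed mean of 887 in dKO and 1387 in control. The part of such cells in these rises was not tested.

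**Figure D3:**
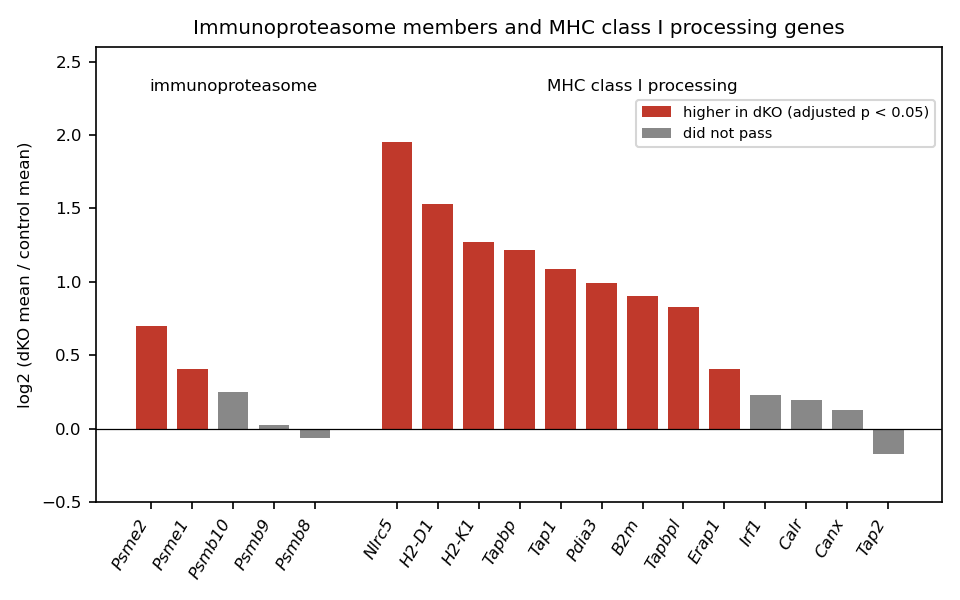
Log2 change, dKO over control, of the 5 immunoproteasome genes (left) and of 13 genes of MHC class I processing (right). Bars are changes of group means and start at 0, and colours show the authors' call at an adjusted p under 0.05. Psme2 and Psme1 rose (Psme1 was not called with equal totals), the catalytic genes Psmb8, Psmb9 and Psmb10 did not pass, and Tap1, the neighbour of Psmb9, rose.

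The promoter windows of Psme1 (RefSeq, GRCm38.p6, chr14:55578244-55578543, + strand), Psme2 (chr14:55591052-55591351, - strand, the first of 2 overlapping windows) and Psmb9 (chr17:34187281-34187580, - strand) are shown 5′ to 3′, since the first pair of genes rose together while Psmb9 did not pass beside its rising neighbour. Capitals mark a match to the interferon-stimulated response element in Psme1, and an E-box of the form CAGNTG and a CCAAT box, each on the reverse strand, in Psmb9. Other E-boxes CANNTG are not marked. The window of Psme2 held none of the motifs searched.
Psme1: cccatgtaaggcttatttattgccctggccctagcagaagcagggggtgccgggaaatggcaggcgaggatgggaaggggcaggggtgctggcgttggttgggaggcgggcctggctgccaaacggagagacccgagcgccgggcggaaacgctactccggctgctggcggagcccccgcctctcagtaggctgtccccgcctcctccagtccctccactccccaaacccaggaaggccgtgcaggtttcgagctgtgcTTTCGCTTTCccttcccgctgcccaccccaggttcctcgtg
Psme2: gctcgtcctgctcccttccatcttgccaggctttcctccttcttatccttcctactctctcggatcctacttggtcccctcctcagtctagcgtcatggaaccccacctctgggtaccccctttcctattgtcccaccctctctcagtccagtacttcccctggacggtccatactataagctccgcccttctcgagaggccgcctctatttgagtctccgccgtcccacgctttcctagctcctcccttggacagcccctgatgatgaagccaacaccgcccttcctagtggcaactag
Psmb9: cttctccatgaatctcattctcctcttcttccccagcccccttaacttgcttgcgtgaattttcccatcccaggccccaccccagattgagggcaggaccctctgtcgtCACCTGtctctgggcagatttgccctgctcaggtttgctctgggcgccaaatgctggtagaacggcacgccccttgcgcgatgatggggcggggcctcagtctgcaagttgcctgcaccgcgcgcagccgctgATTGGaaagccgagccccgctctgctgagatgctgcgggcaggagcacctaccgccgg

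Promoters of 41 of the 49 members were in the RefSeq table, 44 windows of 300 bases in all, and were searched on both strands for motifs known from proteasome, interferon and E protein target genes. The interferon-stimulated response element, written as TTTC and TTTC with any 2 bases between them, was in 11.4% of member windows (those of Psmb3, Psmd4, Psmd9, Psme1 and Psmg4) and in 3.44% of all 32851 windows. Of the genes with this match only Psme1 was called. The antioxidant response element TGACNNNGC, a site of the proteasome regulator NRF1, was in 13.6% of member windows and in 12.4% of all windows. The CCAAT box CCAAT was in 34.1% of member windows and 37.4% of all windows. E-boxes CANNTG were in 59.1% of member windows and 72.3% of all windows, and the form CAGNTG, which overlaps the first by definition, in 43.2% of member windows and 51.4% of all windows. Among members with a window that fell, Psmg3 and Psmd5 of 4 held CAGNTG, and among those that rose, Psmc2 of 4, in the window of it that is not printed. A match describes the letters of the window and is not a bound site.

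Among the other regulators, Psme4, a nuclear activator of the core, had means of 1714 in dKO and 1762 in control (adjusted p = 0.918 in the authors' deposited table). Psmf1, an inhibitor and transport factor of the core, had 1345 in dKO and 1405 in control (adjusted p = 0.873 in the authors' deposited table). Of 16 detected proteasome cofactors without a Psm symbol, 1 rose and 3 fell while 12 missed the threshold, and the median log2 change was -0.10. The shares among all tested genes were 15.1% higher and 13.8% lower, and above the abundance limit of 1000 they were 25.1% and 18.8%. These shares also apply to the lists of NRF1 and ubiquitin genes below. Whether any of these lists differs from them was not tested. Akirin2, an import factor for the proteasome, rose 1.73-fold, with means of 525 in dKO and 303 in control in the authors' deposited table (adjusted p = 0.0473). Usp14, a deubiquitylase bound to the base, fell 1.33-fold in the authors' deposited table, with 3316 in dKO and 4404 in control (adjusted p = 0.000846). AI314180, the gene of the scaffold protein that joins core and regulatory particle, fell 1.33-fold, and the shuttle factor gene Ubqln4 1.36-fold, in the authors' deposited table (adjusted p = 0.000633 and 0.00125). The abundant cofactor genes Txnl1, Adrm1 and Pomp did not pass. Of 10 genes of the pathway by which NRF1 (Nfe2l1) raises proteasome transcription, Mafk fell and 9 stayed short of the threshold, among them the abundant Vcp, Ngly1 and Keap1. Nfe2l1 itself had means of 2136 in dKO and 1865 in control in the authors' deposited table (adjusted p = 0.289). Of 5 genes of ubiquitin and its activating enzymes, Ubb rose 1.26-fold and 4 did not pass, with Ubb at 92175 in dKO and 73257 in control in the authors' deposited table (adjusted p = 0.00129).

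The core subunits known from single tissues had the smallest means of all members, and of the pair Psma8 fell and Psmb11 did not pass. Psma8, the alpha subunit of spermatogenic cells, had normalised counts of 45.3, 31.6 and 33.7 in the dKO libraries of size factor 1.04, 1.08 and 1.16, and of 47.4, 123 and 146 in the control libraries of size factor 0.823, 0.952 and 1.02. Every control library lay above every dKO library, but the lowest control library was close to the highest dKO library. The means were 36.9 ± 7.35 in dKO and 106 ± 51.7 in control (SD, n = 3 libraries each), from 120 reads in dKO and 306 in control. Psma8 fell 2.86-fold in the authors' deposited table (adjusted p = 0.0474), close to the threshold. The fold lay between 2.31 and 3.65 when each library was left out in turn, with no new test. Psmb11, the catalytic subunit of the thymoproteasome of cortical thymic epithelial cells, had 5, 8 and 6 reads in the dKO libraries and 5, 18 and 13 reads in the control libraries, in the same order of size factors. Its normalised counts were 5.82 ± 1.42 in dKO and 12.6 ± 6.41 in control (SD, n = 3 libraries each), and the groups overlapped. Its adjusted p in the authors' deposited table was 0.676. Of 7 thymic epithelial markers, Psmb11 included, all were detected and Ly75 fell, where 13.8% of all tested genes fell. Their summed mean was 654 in dKO and 679 in control, but 3 had a log2 change above 0 and 4 below. In the authors' deposited table Epcam was at 343 in dKO and 227 in control and did not pass, and Ly75 was at 185 in dKO and 328 in control. Foxn1, the defining factor of that epithelium, had means of 2.02 in dKO and 4.2 in control in the authors' deposited table. Psmc3ip fell 1.53-fold, with means of 349 in dKO and 536 in control in the authors' deposited table (adjusted p = 0.0131).

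**Figure D4:**
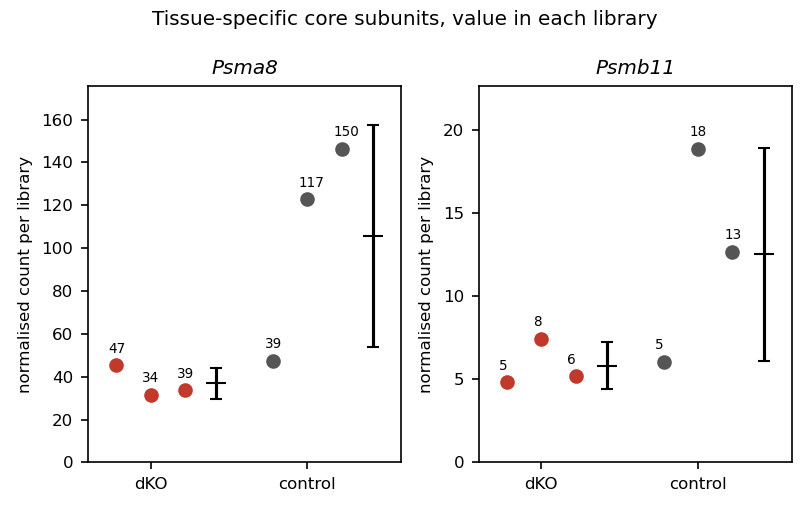
Normalised count of Psma8 (left) and Psmb11 (right) in each of 3 dKO and 3 control libraries, ordered by size factor within a group. Numbers beside the points are reads, and bars show the mean and SD. For both genes 1 control library lies close to the dKO libraries and the other 2 lie above them.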

How the data were processed

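Per the labels' protocols, RNA from the sorted cells was converted to amplified cDNA (SMARTer chemistry for low input), which was sheared for HiSeq libraries. Such amplification makes reads dependent, so counting error understates the error. The submitters' processing notes name TopHat2 2.0.14, bcl2fastq 1.8.4, DESeq (version 2) and the mm9 build, with no role for any of them. How reads were assigned to genes is not given in the sources used here.

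Signal values are group means of normalised counts made by the authors, per the file headers, and the deposited fold is the ratio of the dKO mean to the control mean. P-values and adjusted p-values are the authors' own, as deposited. The design assumed a count test if values per library were given. The table holds group means, so the authors' test was used, and a gene was called at their adjusted p under 0.05 over 16241 tested genes. Log2 changes are those of the means. The members, lists and classes were chosen with earlier results of these data known. All members may be named, with full values for calls of at least 1.5-fold and for the catalytic, activator and tissue-specific genes. From the other lists, at most 4 called genes (by adjusted p) and 3 uncalled genes (by abundance) were named. From the lists of MHC class I processing and of ubiquitin genes 1 gene each is not reported here and was left out of the counts. Tap1, Irf1, Nfe2l1 and the markers were named outside that rule, after their values were seen.

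The implied standard error is the absolute log2 change divided by the normal quantile of the authors' p-value, where that quantile was over 0.3. On data simulated for dKO against control, its median ratio to the true value was 1.02 at high and 1.01 at low dispersion (43 and 44 simulated draws). The simulated test was given the true dispersion, which the authors' test had to estimate, and its means were capped below those of many members. It therefore checks the formula, and cannot show whether the authors' p-values give intervals of the right width. Low means are sums of whole reads weighted by library. All 3719 distinct dKO means and 3582 control means up to 100 had a unique solution, as had Psma8 in control and Psmg4 in dKO above that limit, and libraries are named by the size factors found. Transcript lengths came from GENCODE M21 basic, and promoters from RefSeq (GRCm38.p6), so no coordinates of the authors' build were mixed with them. Python 3.11.15, numpy 2.4.6, scipy 1.17.1 and pandas 2.3.3 were used.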

Additional observations from a re-analysis of the deposited data

How the results depend on the processing

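The deposited values are group means, and reads per library were solved only for a few members of low mean, so the authors' test could not be refitted. No paired analysis was possible because the columns carry no replicate numbers. Of 6 members called higher and 5 called lower, 2 and 1 passed at an adjusted p under 0.01, and 1 and 3 when a 1.5-fold change was also required. With p-values recomputed from the implied standard errors after scaling to equal totals, an alternative chosen after seeing the data, 2 were higher and 9 lower. The share of all calls that were higher then moved to 42.9%, against 52.3% as deposited. That scaling changed the sign of 8 members, none of them called. Scaling to a median change of 0, redoing the adjustment over genes with a mean of at least 10, and leaving out Psmc3ip each kept both counts within 1.5 times. The medians of the members and of the 5 classes moved by less than the median implied standard error under every alternative run, although the medians of the core and the base went to -0.00 and -0.01 with equal totals. Leaving out a library was possible for Psma8 and Psmb11, whose log2 changes lay between -1.87 and -1.21 and between -1.44 and -0.69. Genes of low abundance rest on few reads.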
